A study of Mus musculus with 12 samples.

Results

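Enzymes of the methionine cycle and of polyamine synthesis were followed across 4 conditions of cultured mouse podocytes, the epithelial cells that cover the glomerular capillaries of the kidney. The set was a list of 10 genes around S-adenosylhomocysteine (Ahcy, Ahcyl1, Adk, Mat2a, Mat2b, Mtr, Shmt2, Srm, Odc1 and Amd1), and every probe that the platform annotation assigns to 1 of these genes alone was taken. This gave 19 of the 45281 probes on the array, for 8 of the 10 genes. Mat2a and Amd1 had no such probe and are not analysed here. Of the 19 probes, 16 probes of 7 genes were detected on at least 3 arrays and were tested among 16311 such probes with 1 gene symbol. The 3 others were 1 probe each of Ahcy (ILMN_1214128) and Mat2b (ILMN_2588505), detected on 0 of 12 arrays, and the sole probe of Mtr (ILMN_2594180), detected on 2 of 12. Tested probes are numbered within a gene from the highest mean signal to the lowest. Levels are log2 normalised intensities and were compared only within a probe.

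The study measured RNA on Illumina mouse arrays, with 3 arrays in each of 4 groups after 48 h. Control cells received neither agent, and the other groups received DZNep (3-deazaneplanocin A) without high glucose, high glucose without DZNep, or both. The labels call the material cultured podocytes and its source a cell line, and give no genotype, dose of DZNep or glucose concentration. Nothing in them says that the 3 samples of a group came from separate cultures. The p-values therefore cover the spread among these samples alone, which may be technical, and 3 arrays for each group limit the precision.

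In the methionine cycle, methionine adenosyltransferase makes S-adenosylmethionine, the methyl donor of nearly all cellular methylation, and each methyl transfer leaves S-adenosylhomocysteine. S-adenosylhomocysteine hydrolase (Ahcy) splits this product into adenosine and homocysteine, adenosine kinase (Adk) removes the adenosine, and methionine synthase (Mtr) returns homocysteine to methionine with a methyl group from folate. DZNep is an adenosine analogue that inhibits the hydrolase, and the accumulating S-adenosylhomocysteine inhibits methyltransferases, Ezh2 of Polycomb repressive complex 2 among them. Polyamine synthesis draws on the same cycle, since decarboxylated S-adenosylmethionine, made by Amd1, supplies the aminopropyl group that spermidine synthase (Srm) adds to putrescine, the product of ornithine decarboxylase (Odc1).

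RefSeq placed the 8 genes with probes on 8 chromosomes, namely Ahcy on 2, Ahcyl1 on 3, Srm on 4, Shmt2 on 10, Mat2b on 11, Odc1 on 12, Mtr on 13 and Adk on 14. RefSeq promoter windows (GRCm38.p6) were given for 9 of the 10 listed genes, with 12 windows in all, and none was given for Srm. Ahcyl1 had 3 windows, with those of start sites 2 and 3 overlapping, and Adk had 2, so the 12 are not separate promoters. The 250 bases before the start site were searched on both strands for 3 motifs that can occur in promoters of housekeeping enzymes and growth-responsive genes. GGGCGG, the core of the GC box, was found in 10 of the 12 windows, against 32.7% of all 32851 windows of that length. CCAAT was found in 6 of the 12, against 33.8% of all windows, and the E-box CACGTG in 0 of the 12, against 6.02%. GC content differed widely among the windows, from 40.8% at Shmt2 to 80% at Odc1, and the median of all windows was 52.4%. The windows of Ahcy, Shmt2 and Odc1 are printed because each of these genes had a probe that was higher with DZNep while their promoters differ in letters. They are Ahcy at chr2:155074498-155074747 (minus strand), Shmt2 at chr10:127522445-127522694 (minus strand) and Odc1 at chr12:17544623-17544872 (plus strand). Each is written 5′ to 3′ on the gene's own strand, ending at the base before the start site, with GGGCGG and CCAAT in capitals in either orientation.
Ahcy: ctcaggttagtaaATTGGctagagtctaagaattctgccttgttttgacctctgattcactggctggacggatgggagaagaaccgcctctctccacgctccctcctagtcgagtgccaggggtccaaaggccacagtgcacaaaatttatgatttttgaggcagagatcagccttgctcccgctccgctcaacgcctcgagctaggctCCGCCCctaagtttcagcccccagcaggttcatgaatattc
Shmt2: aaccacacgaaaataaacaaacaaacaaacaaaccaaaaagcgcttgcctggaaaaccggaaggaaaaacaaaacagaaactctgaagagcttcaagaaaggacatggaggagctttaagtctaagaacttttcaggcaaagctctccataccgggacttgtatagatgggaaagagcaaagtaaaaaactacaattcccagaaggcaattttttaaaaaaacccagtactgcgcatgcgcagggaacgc
Odc1: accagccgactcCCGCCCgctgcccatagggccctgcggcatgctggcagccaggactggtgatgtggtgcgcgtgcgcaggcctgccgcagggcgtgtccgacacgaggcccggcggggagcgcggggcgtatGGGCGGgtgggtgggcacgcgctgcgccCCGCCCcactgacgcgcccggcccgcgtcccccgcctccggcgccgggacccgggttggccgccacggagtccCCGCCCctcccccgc
The Ahcy window holds 1 GC box, 41 bases before the start, and 1 CCAAT. The Odc1 window holds 4 GC boxes, at 238, 116, 88 and 15 bases before the start, and no CCAAT. Neither motif is in the Shmt2 window. A match is a description of these letters only.

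The 12 arrays were of like quality, with 38.4% to 41.3% of probes detected and a median raw signal of 133.2 to 151.4. Pairs of arrays correlated at 0.973 to 0.996 over the tested probes. The first principal component held 44.3% of the variance and split the arrays by DZNep. The second held 14.6%, and control replicate 3 lay farthest out on it. That array was the highest of the 3 controls at 8 of the 16 tested probes, among them all 3 of Mat2b, and the lowest at 6. Member calls for DZNep without high glucose that did not pass once control replicate 3 was left out are given below with both values. Ezh2, the target that the series names, was lower with DZNep without high glucose at ILMN_1234171 (-0.89, SE 0.10, adjusted p = 0.000117 by limma), and its other detected probe was at -0.57 (adjusted p = 0.0579). In high glucose the values were -0.25 (adjusted p = 0.0928) and -0.47 (adjusted p = 0.143). Averaged over both glucose conditions they were -0.57 and -0.52 (adjusted p = 9.7e-05 and 0.017 by limma).

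**Figure D1:**
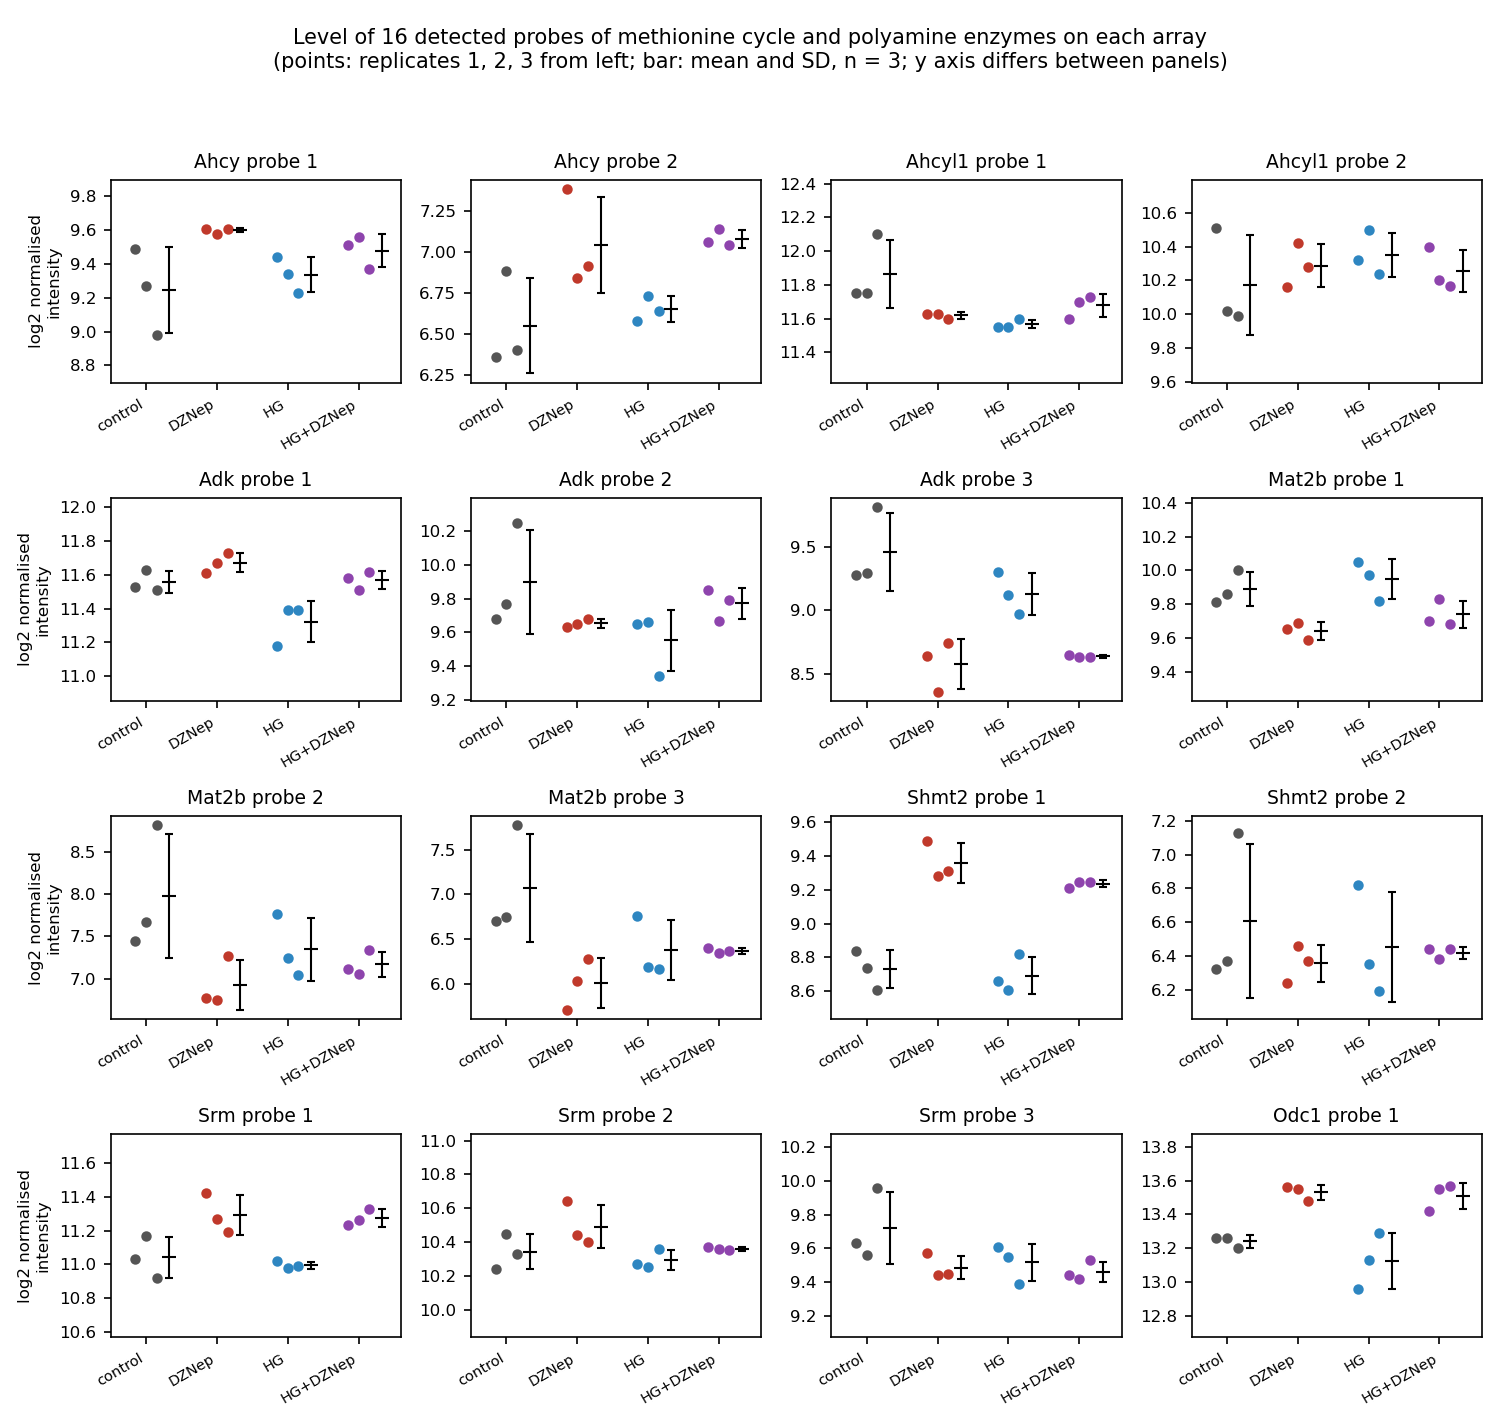
Log2 normalised intensity (y axis, which differs between panels) of the 16 tested probes on each array in the 4 groups (x axis; HG, high glucose). Points are replicates 1, 2 and 3 from left, and the bars beside them give the mean and SD (n = 3). Shmt2 probe 1 and Odc1 have both DZNep groups above both groups without it, Adk probe 3 has them below, and control replicate 3 is the highest control at the 3 Mat2b probes.

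DZNep without high glucose changed 9 of the 16 probes at an adjusted p under 0.05 (limma, Benjamini-Hochberg over all 16311 probes), against 31.1% of all tested probes. The 5 higher probes belonged to Ahcy (both probes), Shmt2, Srm and Odc1, and the 4 lower ones to Mat2b (all 3 tested probes) and Adk. Of all tested probes 17.1% were higher and 14.1% lower. The median change of the 16 probes was -0.06 on the log2 scale, against 0.03 for all probes, with probes on both sides of 0. In size, the median absolute change was 0.25 for the 16 probes and 0.22 for all. The arrays of the compared groups did not overlap at 9 of the 16 probes, against 43.4% of all probes. Without control replicate 3, the count fell to 3 of 16 (Shmt2 probe 1, Adk probe 3 and Mat2b probe 3), while the count over all probes went from 5080 to 3698. The member count was also 3 without DZNep replicate 1 and 4 without DZNep replicate 2, where the counts over all probes were 3553 and 3971.

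DZNep added in high glucose changed 5 of the 16 probes, against 19% of all tested probes (10.1% higher and 8.93% lower). Odc1, Srm probe 1, Shmt2 probe 1 and Adk probe 1 were higher and Adk probe 3 was lower. The 2 DZNep comparisons share no array, and 4 probes (Shmt2 probe 1, Srm probe 1, Odc1 and Adk probe 3) passed in both. A further 5 passed without high glucose only, 1 in high glucose only and 6 in neither. By sign alone, 7 probes were higher in both, 6 were lower in both and 3 differed in sign. These joint counts were not taken over all tested probes, so they do not set the members apart from other probes. No array of one group overlapped the other at 8 of the 16 probes, against 40.7% of all. The count ranged from 2 to 5 when single arrays were left out, while the count over all probes, 3100 with all arrays, ranged from 1943 to 3552.

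Averaged over both glucose conditions, DZNep changed 10 of the 16 probes, 6 of them higher and 4 lower, against 37.6% of all tested probes (20.1% higher and 17.5% lower). The 6 higher probes were both of Ahcy, Adk probe 1, Shmt2 probe 1, Srm probe 1 and Odc1, and the 4 lower ones were Adk probe 3 and all 3 of Mat2b. The median over the 16 was -0.00074, against 0.01 for all probes. The members therefore moved in both directions, and the direction differed between genes and, at Adk, between probes of one gene.

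**Figure D2:**
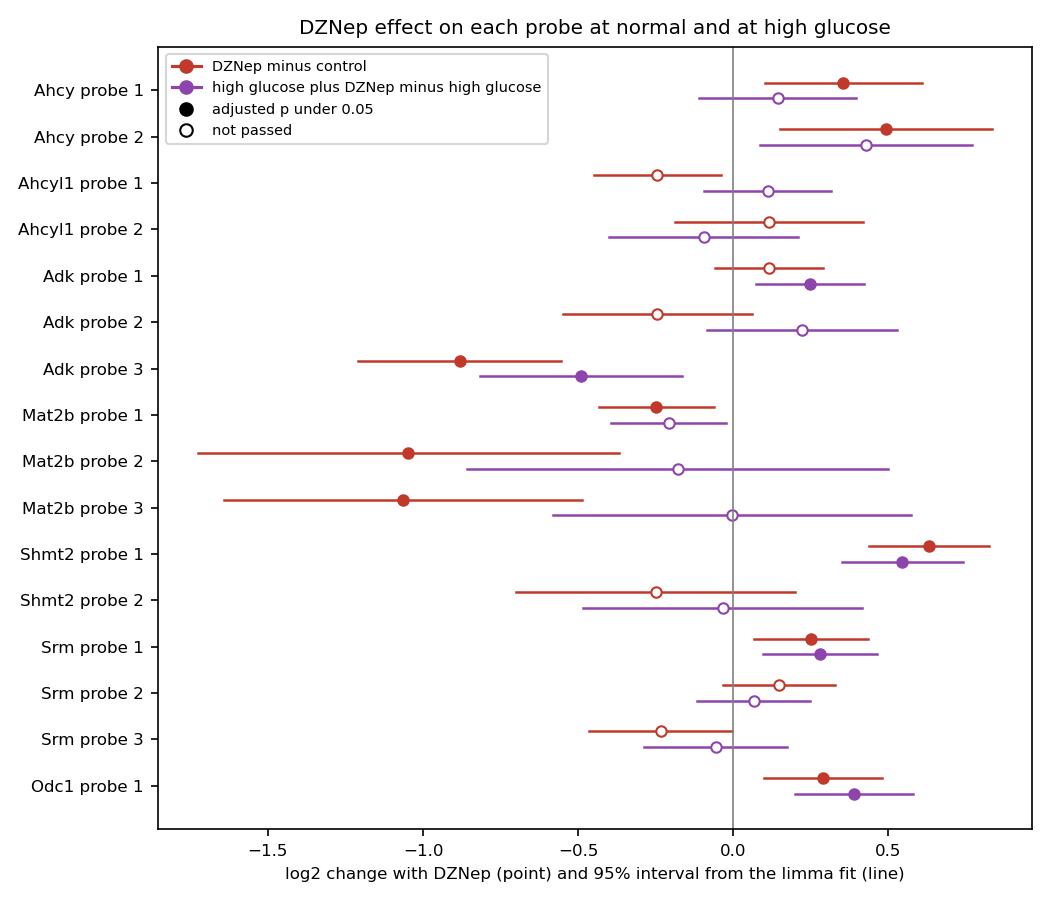
Log2 change with DZNep (x axis) at each of the 16 tested probes, without high glucose (red) and in high glucose (purple), with the 95% interval from the limma fit as a line. Filled points had an adjusted p under 0.05, and both points are filled at Adk probe 3 (below 0) and at Shmt2 probe 1, Srm probe 1 and Odc1 (above 0).

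Ahcy, the enzyme that DZNep inhibits, was higher with DZNep at both tested probes. Ahcy probe 1 (ILMN_1237919) stood at 9.49, 9.27 and 8.98 on the control arrays, 9.61, 9.58 and 9.61 with DZNep, 9.44, 9.34 and 9.23 in high glucose, and 9.51, 9.56 and 9.37 with both. All 3 DZNep arrays lay above all 3 controls, and the lowest control was replicate 3. The change was 0.35 (SE 0.12, 1.28-fold, adjusted p = 0.0374). It was 0.22 (adjusted p = 0.124) without control replicate 3, and the call held under 11 of 21 alternatives. In high glucose the groups overlapped, and the change of 0.14 (95% interval -0.11 to 0.40) had an adjusted p of 0.43. Ahcy probe 2 (ILMN_2852533) read 6.36, 6.88 and 6.40 in controls and 7.38, 6.84 and 6.91 with DZNep. It read 6.58, 6.73 and 6.64 in high glucose and 7.06, 7.14 and 7.04 with both. The high glucose groups did not overlap, while control replicate 2 lay within the range of the DZNep arrays. The probe rose by 0.49 (SE 0.16, 1.41-fold, adjusted p = 0.033) without high glucose, and the change in high glucose was 0.43 (adjusted p = 0.0782). The first of these was 0.42 (adjusted p = 0.109) without control replicate 3. Its average over both conditions was 0.46 (SE 0.11, 1.38-fold, adjusted p = 0.00703), and this call held under all 19 alternatives that gave a value. For probe 1 the average was 0.25 (adjusted p = 0.0326), which held under 11 of 20.

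Ahcyl1 encodes a relative of the hydrolase, also called IRBIT, that binds the inositol trisphosphate receptor. Neither of its probes passed in any comparison. Ahcyl1 probe 1 (ILMN_1245795) read 11.75, 11.75 and 12.10 in controls, 11.63, 11.63 and 11.60 with DZNep, 11.55, 11.55 and 11.60 in high glucose, and 11.60, 11.70 and 11.73 with both. Every control array was above every other array, with replicate 3 the farthest. The DZNep change without high glucose was -0.24 (95% interval -0.45 to -0.04, adjusted p = 0.0675), and without control replicate 3 it was -0.13. Ahcyl1 probe 2 (ILMN_2428506) ranged from 9.99 to 10.51 over the controls, and the 9 other arrays all lay within that range. Its changes were 0.12 without high glucose and -0.10 in high glucose.

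Adk, which phosphorylates adenosine to AMP, gave a different picture at each of its 3 probes. Adk probe 3 (ILMN_2455920) read 9.28, 9.29 and 9.81 in controls and 8.64, 8.36 and 8.74 with DZNep. In high glucose it read 9.30, 9.12 and 8.97, and with both agents 8.65, 8.63 and 8.63. All 6 DZNep arrays lay below all 6 arrays without DZNep. The change was -0.88 (SE 0.15, 0.543 times the control, adjusted p = 0.00155) without high glucose and -0.49 (SE 0.15, adjusted p = 0.0402) in high glucose, where the call held under 11 of 20 alternatives. Averaged, it was -0.69 (95% interval -0.92 to -0.46, adjusted p = 0.000465), the largest average change by size among the 16 probes, and this call held under all 19 alternatives. Adk probe 1 (ILMN_2986899), the brightest, went the other way. It read 11.53, 11.63 and 11.51 in controls, 11.61, 11.67 and 11.73 with DZNep, 11.18, 11.39 and 11.39 in high glucose, and 11.58, 11.51 and 11.62 with both. The high glucose arrays were the lowest, with no overlap with any other group. DZNep in high glucose raised it by 0.25 (SE 0.08, 1.19-fold, adjusted p = 0.0496), a call that held under 6 of 21 alternatives, and the average was 0.18 (adjusted p = 0.0247). Adk probe 2 (ILMN_2702471) passed in no comparison, with an average of -0.01 (95% interval -0.23 to 0.20). Probe 3 is annotated to a cDNA record and the other 2 to the RefSeq transcript, and the place of each probe within the gene was not analysed here.

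Mat2b encodes the regulatory subunit of methionine adenosyltransferase, whose catalytic partner Mat2a was not measured. All 3 tested Mat2b probes were lower with DZNep without high glucose. Mat2b probe 1 (ILMN_2959037), the brightest, read 9.81, 9.86 and 10 in controls, 9.65, 9.69 and 9.59 with DZNep, 10.05, 9.97 and 9.82 in high glucose, and 9.70, 9.83 and 9.68 with both. The DZNep arrays lay below all controls, and in high glucose 1 array with DZNep exceeded 1 without. The change was -0.25 (SE 0.08, adjusted p = 0.044) without high glucose and -0.21 (adjusted p = 0.108) in high glucose, and the first call held under 6 of 21 alternatives. The first change was -0.19 (adjusted p = 0.141) once control replicate 3 was left out. The average of -0.23 at probe 1 (SE 0.06, 0.854 times the level without DZNep, adjusted p = 0.0112) held under all 20 alternatives. Mat2b probe 2 (ILMN_1248381) read 7.45, 7.67 and 8.81 in controls, 6.77, 6.75 and 7.27 with DZNep, 7.76, 7.25 and 7.04 in high glucose, and 7.11, 7.06 and 7.34 with both. Mat2b probe 3 (ILMN_1246268) read 6.70, 6.75 and 7.77 in controls, 5.71, 6.03 and 6.28 with DZNep, 6.76, 6.19 and 6.17 in high glucose, and 6.40, 6.34 and 6.37 with both. At both of these dimmer probes control replicate 3 was more than 1 log2 unit above the mean of the other controls (1.25 and 1.04). The DZNep changes without high glucose were -1.05 (SE 0.31, adjusted p = 0.025) at probe 2 and -1.07 (SE 0.26, adjusted p = 0.0111) at probe 3. They were -0.63 (adjusted p = 0.0598) and -0.72 (adjusted p = 0.0219) without control replicate 3. In high glucose the changes were -0.18 and -0.004 (adjusted p = 0.739 and 0.994). The averages of -0.61 and -0.53 (adjusted p = 0.0458 and 0.0413) held under 10 and 11 of 19 alternatives. Probe 3 is annotated to a cDNA record, unlike probes 1 and 2.

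Mtr, which remethylates homocysteine with a folate-bound methyl group, was at the edge of detection. Its probe passed the detection p of 0.05 on 1 control and 1 DZNep array and on 0 of the 6 high glucose arrays. The normalised values lay between 4.94 and 5.84, and no change was tested. The untested Ahcy probe lay between 4.64 and 5.10, and the untested Mat2b probe over the same range.

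Shmt2, the mitochondrial serine hydroxymethyltransferase that moves a carbon from serine to folate, gave the smallest p-values of the set. Shmt2 probe 1 (ILMN_1224942) read 8.84, 8.74 and 8.61 in controls and 9.49, 9.28 and 9.31 with DZNep. In high glucose it read 8.66, 8.61 and 8.82, and with both agents 9.21, 9.25 and 9.25. Every DZNep array was above every array without DZNep. The probe rose by 0.63 (SE 0.09, 1.55-fold, adjusted p = 0.000559) without high glucose and by 0.55 (SE 0.09, 1.46-fold, adjusted p = 0.00171) in high glucose. The average was 0.59 (95% interval 0.45 to 0.73, adjusted p = 4.11e-05), and all 3 calls held under every alternative that gave a value, without control replicate 3 included (0.57, adjusted p = 0.00245, without high glucose). Shmt2 probe 2 (ILMN_2702703), a dim probe, did not follow. It read 6.32, 6.37 and 7.13 in controls, 6.24, 6.46 and 6.37 with DZNep, 6.82, 6.35 and 6.19 in high glucose, and 6.44, 6.38 and 6.44 with both. Apart from control replicate 3 and high glucose replicate 1, its arrays lay between 6.19 and 6.46, and its average change was -0.14 (95% interval -0.46 to 0.18, adjusted p = 0.475). Its change without high glucose was 0.01 once control replicate 3 was left out.

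Odc1, the first and rate-limiting enzyme of polyamine synthesis, was higher with DZNep in both glucose conditions. Its probe (ILMN_3008406) read 13.26, 13.26 and 13.20 in controls and 13.56, 13.55 and 13.48 with DZNep. In high glucose it read 12.96, 13.13 and 13.29, and with both agents 13.42, 13.55 and 13.57. Again all 6 DZNep arrays exceeded all 6 others. The rise was 0.29 (SE 0.09, 1.22-fold, adjusted p = 0.0261) without high glucose and 0.39 (SE 0.09, 1.31-fold, adjusted p = 0.00992) in high glucose. Averaged over both it was 0.34 (95% interval 0.20 to 0.47, adjusted p = 0.00134), and this call held under all 20 alternatives. Without control replicate 3 the change without high glucose was 0.27 (adjusted p = 0.0732).

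Srm, which makes spermidine, was higher with DZNep at its brightest probe. Srm probe 1 (ILMN_2809611) read 11.03, 11.17 and 10.92 in controls, 11.42, 11.27 and 11.19 with DZNep, 11.02, 10.98 and 10.99 in high glucose, and 11.23, 11.26 and 11.33 with both. The 6 DZNep arrays lay above the 6 others, although the lowest of them was close to control replicate 2. The changes were 0.25 (SE 0.08, 1.19-fold, adjusted p = 0.0416) and 0.28 (SE 0.08, 1.21-fold, adjusted p = 0.0384) without and in high glucose, calls that held under 6 and 11 of 21 alternatives. Their average of 0.27 (SE 0.06, adjusted p = 0.00488) held under all 20 alternatives. The change without high glucose was 0.19 (adjusted p = 0.136) once control replicate 3 was left out. Srm probe 2 (ILMN_1225880) and Srm probe 3 (ILMN_2630641) passed in no comparison, with averages of 0.11 (95% interval -0.02 to 0.23) and -0.15 (95% interval -0.31 to 0.02). At probe 3 control replicate 3 was the highest array, at 9.96, and the other 11 lay between 9.39 and 9.63. Amd1 was not measured under its own symbol. A probe of Amd2 (ILMN_2992239), a close copy whose signal may not be separable from that of Amd1, had an average change of -0.17 (adjusted p = 0.181).

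High glucose without DZNep changed 0 of the 16 probes (limma, adjusted p under 0.05), against 0.123% of all tested probes. At an unadjusted p under 0.05 there were 5, against 2933 of all 16311 probes, all 5 lower, at Ahcyl1 probe 1, all 3 Adk probes and Mat2b probe 3. The largest was Mat2b probe 3 at -0.70 (95% interval -1.28 to -0.12, adjusted p = 0.201), which was -0.35 without control replicate 3. Adk probes 1, 2 and 3 were at -0.23, -0.35 and -0.33 (adjusted p = 0.171, 0.226 and 0.271). Of these, probes 1 and 2 had no overlap between high glucose and control arrays, and without control replicate 3 the changes were -0.26, -0.17 and -0.16. At Shmt2 probe 1 and Odc1 the changes were -0.04 (95% interval -0.23 to 0.16) and -0.12 (95% interval -0.31 to 0.07). Groups did not overlap at 3 of 16 probes, against 20.3% of all.

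With DZNep present, high glucose also changed 0 of the 16 probes, against 0.0736% of all, and none had an unadjusted p under 0.05. The changes ran from -0.13 to 0.36, the last at Mat2b probe 3 (adjusted p = 0.705). Groups did not overlap at 4 of the 16 probes, against 18.5% of all. Whether the DZNep effect differed between glucose conditions was tested as an interaction, and 0 of 16 probes passed, against 0.0368% of all. At an unadjusted p under 0.05 there were 3, against 2543 of all 16311 probes, namely Ahcyl1 probe 1 at 0.36, Adk probe 2 at 0.47 and Mat2b probe 3 at 1.06 (adjusted p = 0.242, 0.289 and 0.224). These were 0.24, 0.29 and 0.71 without control replicate 3. The probes that passed without high glucose only were therefore not shown to respond differently in high glucose.

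**Figure D3:**
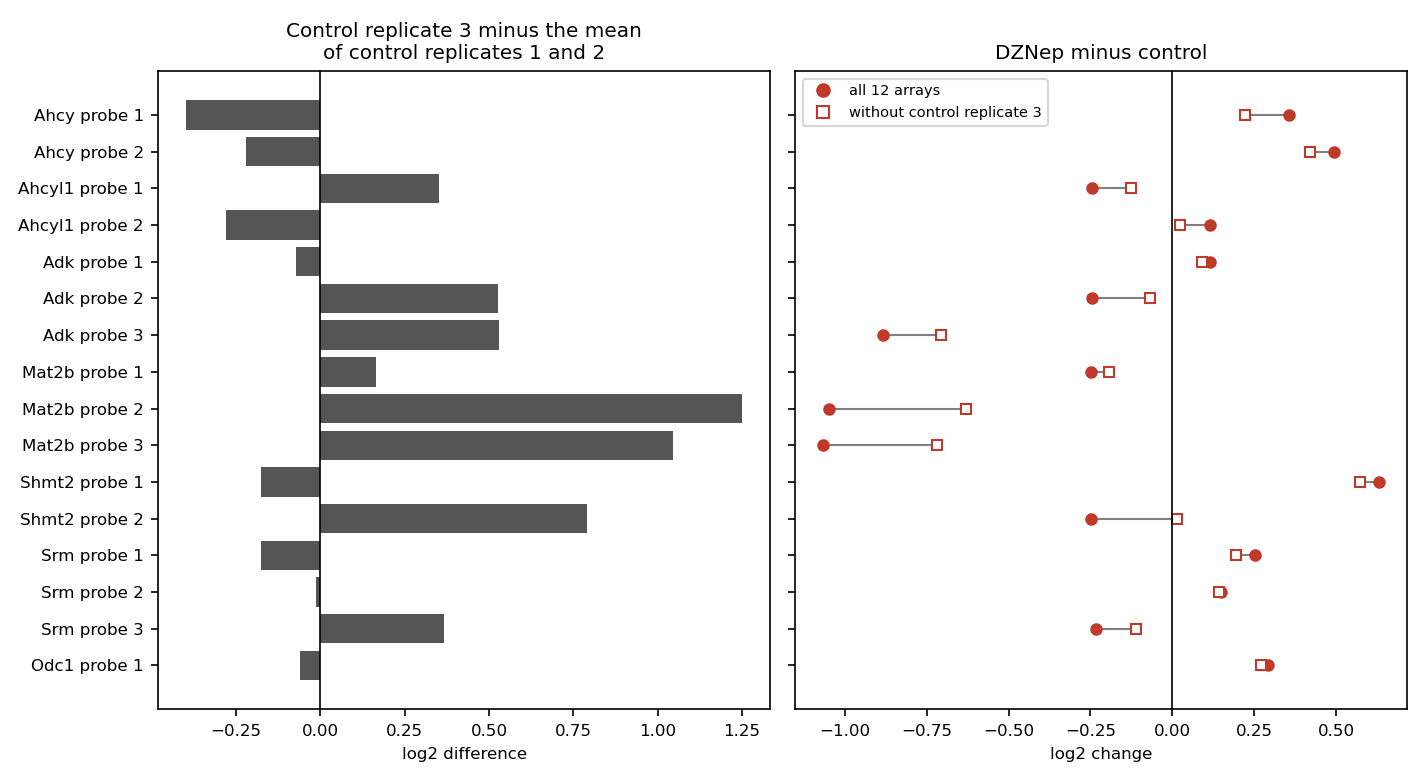
Left, control replicate 3 minus the mean of control replicates 1 and 2 (x axis, log2) at each of the 16 tested probes. Right, the DZNep change without high glucose (x axis, log2) with all 12 arrays (filled circles) and without control replicate 3 (open squares); the squares lie nearer 0 at all 16 probes, by most at Mat2b probes 2 and 3.

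The plot of control replicate 3 shows how much of the DZNep change without high glucose came from 1 array. The replicate stood 0.79 above the other controls at Shmt2 probe 2, 0.53 above them at Adk probes 2 and 3, and 0.40 below them at Ahcy probe 1. At Odc1 and Srm probe 2 it differed from them by -0.06 and -0.01.

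The 4 group means of each probe were put in order, and each step between neighbours was tested. Of the 48 steps, 3 passed. The order came from the same values that were tested, and the adjusted p-values do not allow for that choice. Such steps were not counted over all probes. Shmt2 probe 1 and Odc1 each had 1 step, from control to high glucose plus DZNep (0.51 and 0.27, adjusted p = 0.00211 and 0.0391), which set both DZNep groups above both others. Adk probe 3 had the reverse step, from high glucose plus DZNep to high glucose (0.49, adjusted p = 0.0402). At the other 13 probes no step passed the test, although the arrays of neighbouring groups did not overlap at some of them.

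By Pearson correlation over the 12 arrays, the 5 probes most like Ahcy probe 1 were of Ptbp1 (r = 0.938), Magee1, Hdac10, Col8a1 and Tagap (r = 0.928). Most like Adk probe 3 were Rbms2 (r = 0.978), Pmp22, Rab28, Acp1 and Rps7 (r = 0.975). These are descriptions over 12 arrays that share their groups and normalisation, and they were the highest of all tested probes by construction. After removal of the group means r was 0.84 to 0.93 for the first set and 0.88 to 0.91 for the second. Pmp22, a myelin and junction protein, had an average DZNep change of -1.36 (adjusted p = 0.000107).

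The surrounding pathways were described with 1 probe for each gene, the brightest detected one. On this scale 31.7% of 10258 genes passed for DZNep without high glucose (19% higher and 12.7% lower), 21.1% in high glucose and 39.4% for the average effect (22.1% higher and 17.4% lower), and the median average effect of all genes was 0.02. In the polyamine list 13 of 20 genes were measured, and 8 were higher and 2 lower on average, with a median of 0.27. Atp13a2, the lysosomal polyamine exporter, read 8.80, 8.96 and 8.67 in controls and 9.76, 9.52 and 9.26 with DZNep, an average rise of 0.63 over both conditions (adjusted p = 0.000238). Its control and DZNep arrays did not overlap. The catabolic enzyme Smox (spermine oxidase) and Sat2, a relative of the polyamine acetyltransferase Sat1, rose by 0.36 and 0.39, and the antizyme inhibitor Azin2, which relieves inhibition of ornithine decarboxylase, by 0.39. A second Azin2 probe was at 0.24 (adjusted p = 0.321). The 2 lower genes were Atp13a3 (-0.17), a polyamine transporter of the plasma membrane, and Oaz2 (-0.15), an ornithine decarboxylase antizyme. Of 4 further Smox probes, 3 also passed as higher.

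Adenosine handling had 11 of 16 genes measured, of which 5 were higher and 2 lower on average, with a median of 0.18. Adk counts as higher here through probe 1 (0.18), while its probe 3 was lower (-0.69). Nt5e (CD73), which makes extracellular adenosine from AMP, read 6.78, 6.54 and 6.44 in controls, 5.43, 5.92 and 5.60 with DZNep, 6.42, 6.87 and 6.76 in high glucose, and 5.08, 5.30 and 5.06 with both. All arrays with DZNep lay below all without. Nt5e was detected on 0 of the 3 arrays with high glucose plus DZNep, where it was at least 2.31-fold lower than in high glucose alone (adjusted p = 7.95e-05), and it fell by 0.94 without high glucose (adjusted p = 0.00125). A bound of this kind compares the bright group with the lowest signal of detected probes. The AMP deaminases moved apart, with Ampd3 lower by an average of -0.84 (adjusted p = 0.000141) and Ampd2 higher by 0.49 (adjusted p = 0.000431). On average, adenosine deaminase (Ada) rose by 0.38, the salvage enzyme Aprt by 0.27 and the transporter Slc29a3 by 0.25. In high glucose only 2 genes of this list passed as higher, Adk (through probe 1) and Aprt. Ampd2, Ada and Slc29a3 did not pass there. A second Ada probe was at 0.14 (adjusted p = 0.261). The transporter Slc29a2, detected on 1 control array, was higher without high glucose (0.76, adjusted p = 0.0438). Without control replicate 3 the genes higher in the comparison without high glucose went from 6 to 3.

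The folate and serine list, to which Shmt2 belongs, had 16 of 23 genes measured, with 7 higher and 5 lower on average and a median of 0.01. Aldh1l1, cytosolic formyltetrahydrofolate dehydrogenase, read 5.48, 5.62 and 5.52 in controls and 6.50, 6.32 and 6.44 with DZNep, and rose on average by 0.74 (adjusted p = 0.000571). The reduced folate carrier Slc19a1 rose by 0.42 (adjusted p = 0.000531) and Fpgs, which adds glutamates to folate, by 0.32. Lower genes included Phgdh, the first enzyme of serine synthesis, at -0.45 (adjusted p = 0.0134), Aldh1l2 (-0.35) and Mthfs (-0.26). Phgdh read 10.60, 10.54 and 11.25 in controls, with replicate 3 the highest, and 10.06, 9.97 and 10.19 with DZNep. That change was -0.72 (adjusted p = 0.00886). In high glucose Phgdh read 10.72, 10.62 and 10.30, against 10.31, 10.41 and 10.41 with both agents, and did not pass. Tyms, thymidylate synthase, counts as lower through its brightest probe (-0.27), but its probes disagreed, since 2 others passed as higher (0.36 and 0.27) and 1 as lower (-0.34). The other detected probe of Mthfs was at 0.13. Mthfd1, a trifunctional enzyme of cytosolic folate, was higher in high glucose (0.23, adjusted p = 0.0372), where its other probe was at -0.02 (adjusted p = 0.909). Without control replicate 3 the lower genes of this list went from 5 to 3.

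The methionine cycle and transsulfuration list had 8 of 18 genes measured, Ahcy, Ahcyl1 and Mat2b among them. On average 1 was higher (Ahcy) and 1 lower (Mat2b), with a median of 0.09. Without high glucose 3 were higher and 1 lower, the higher ones being Ahcy, the amino acid transporter chain Slc3a2 (0.53, adjusted p = 0.0317) and cystathionine beta-synthase, Cbs (0.50, adjusted p = 0.0491). Both counts were 0 without control replicate 3. A second Cbs probe had an average of 0.75 (adjusted p = 0.000286). In methionine salvage, which recovers methionine from the by-product of polyamine synthesis, 5 of 7 genes were measured, with Mtap higher (0.16) and Apip (-0.37) and Enoph1 (-0.29) lower and a median of -0.13. Adi1, the dioxygenase of this route, was lower without high glucose (-0.22, adjusted p = 0.0395). Without control replicate 3 the salvage genes lower in that comparison went from 2 (Apip and Adi1) to 0. Among methyltransferases of small molecules 8 of 12 were measured, with 2 higher and 2 lower and a median of -0.06, and 1 higher without control replicate 3. Inmt, an amine methyltransferase, read 11.66, 11.77 and 11.69 in controls, 12.15, 12.49 and 12.35 with DZNep, 12.80, 12.42 and 12.67 in high glucose, and 13.28, 13.30 and 13.13 with both. DZNep raised it by an average of 0.61 (adjusted p = 0.000157) and high glucose by 0.92 without and 0.91 with DZNep (adjusted p = 0.00705 and 0.0119). Icmt rose by 0.18, with a second probe at 0.73, and Pcmtd1 and Tpmt were lower at -0.35 and -0.32. Pcmtd1 was at -0.66 (adjusted p = 0.000782) without high glucose. In high glucose it read 7.84, 7.86 and 7.68, against 7.71, 7.90 and 7.65 with both agents, and did not pass. The 2 other Pcmtd1 probes had averages of -0.38 and -0.18 (adjusted p = 0.00436 and 0.221). Pcmt1 was lower without high glucose (-0.28, adjusted p = 0.0401), and its 2 other probes were at -0.49 and -0.04 (adjusted p = 0.0129 and 0.916). Without control replicate 3 the methyltransferase genes lower in that comparison went from 3 to 2. Icmt methylates prenylated proteins and Pcmt1 damaged aspartyl residues of proteins, so the list also holds enzymes whose substrates are not small molecules. Inmt was the only gene of the 6 lists that passed in a high glucose comparison, where 0.117% and 0.0585% of all genes passed.

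**Figure D4:**
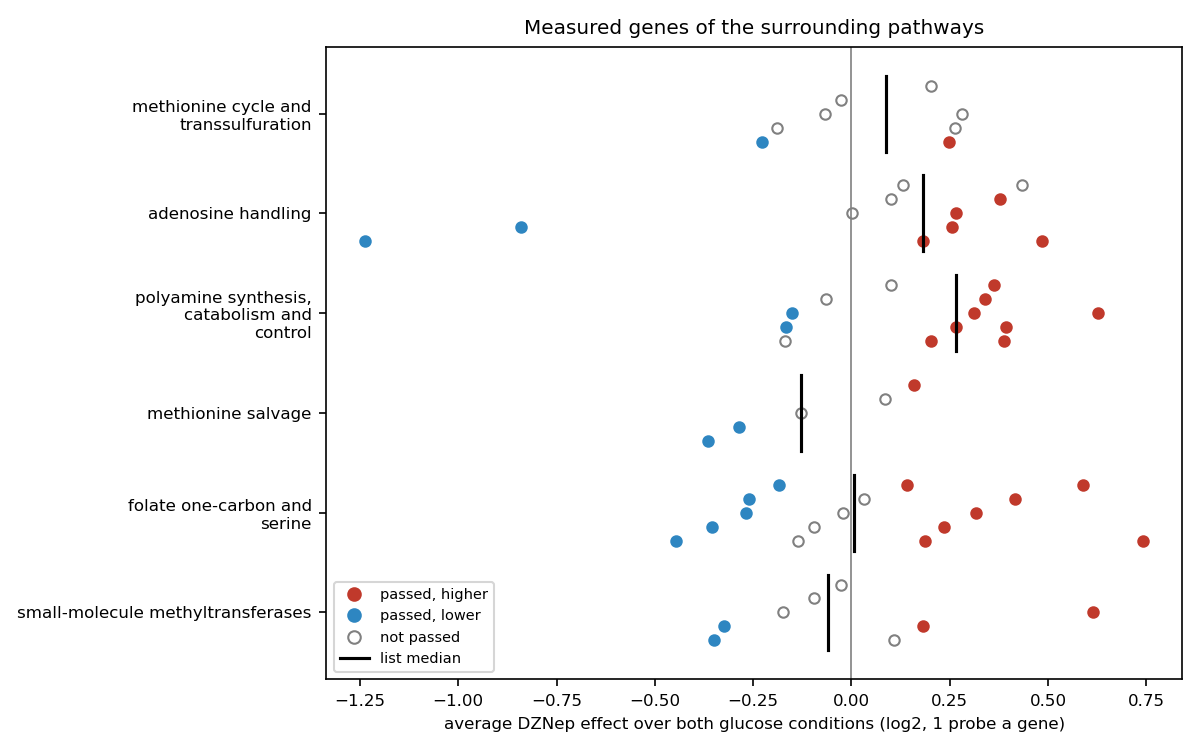
Average DZNep effect over both glucose conditions (x axis, log2) of each measured gene in the 6 pathway lists (rows), 1 probe for each gene. Red and blue points passed as higher and lower, open points did not pass, and the black bars mark list medians; the polyamine list has the highest median (0.27) and the point of Nt5e, not above background with both agents, has no exact place.

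Podocyte markers were present at 7 of 12 genes, and Nphs1, Synpo, Podxl, Cd2ap and Actn4 were detected on all 12 arrays. Ptpro was detected on 0 arrays and Kirrel on 1. Without high glucose Nphs1 was higher with DZNep (0.22, adjusted p = 0.0301), and Vim and Cd2ap were lower (-0.54 and -0.39, adjusted p = 0.00366 and 0.0375). The podocyte sum was 34786 to 37807 in controls, 32224 to 32919 with DZNep, 33497 to 34274 in high glucose and 32407 to 34396 with both. Marker sums, here as linear normalised intensity, of other cell types moved with DZNep or with high glucose in places. The endothelial sum (4 of 8 markers detected) was 122 to 189 in controls and 219 to 263 with DZNep, and 138 to 176 in high glucose and 189 to 241 with both, while Pecam1, Cdh5, Emcn and Flt1 were not detected. The leukocyte sum (2 of 7 detected) was 33.04 to 57.98 in controls, 69.96 to 91.63 with DZNep, 38.86 to 49.81 in high glucose and 35.43 to 53.45 with both, with Ptprc, Adgre1, Itgam and Lyz2 not detected. Each probe value includes the offset of 16 of the background correction, so the endothelial and leukocyte sums are in part background. Tubular sums (5 of 8) were 15627 to 16111 in controls and 12683 to 15451 with DZNep, and 20140 to 21188 in high glucose and 18111 to 19530 with both, with Cubn, Umod and Slc34a1 not detected. Aqp1 of this list rose with high glucose, by 1.16 without and 1.05 with DZNep (adjusted p = 0.00138 and 0.00315). In each DZNep comparison 1 tubular marker was higher and 1 lower. Cdh16 was the lower one (-0.34 and -0.27 without and in high glucose), and Lrp2 was higher in high glucose (0.50, adjusted p = 0.00601). Mesangial and smooth muscle sums (6 of 7) were 66585 to 68452 in controls and 60464 to 63975 with DZNep, and 62392 to 65241 in high glucose and 60205 to 63719 with both, with Myh11 not detected. Although these sums were lower with DZNep without high glucose, the markers of this list that passed were higher, Gata3 by 1.13 and 0.91 and Pdgfrb by 0.69 and 0.41 without and in high glucose. The part of these markers in the enzyme results was not tested. In bulk RNA, fewer cells of a type and less RNA per cell cannot be told apart.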

How the data were processed

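Total RNA was cleaned on columns with DNase and labelled with biotin as cRNA for Illumina arrays, per the labels' protocols. Signals were deposited as linear intensity values without normalisation, with a detection p-value beside each, per the file headers. GenomeStudio is named in the submitters' processing notes, with no version given in the sources used here. The authors also deposited processed intensity values that followed the raw values linearly within an array (slope 0.832 to 1.12) and served only as an alternative. Groups of the 12 arrays were taken from the labels, and columns were matched to samples by name.

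The neqc function of limma 3.58.1 (R 4.3.3) corrected the background by normexp with an offset of 16, inferring it from the detection p-values, normalised by quantiles and took log2. Hence folds of dim probes are understated and the deposited values, which were not log2, differ in scale. Of 45281 probes, 34885 had 1 gene symbol, 18 several and 10378 none, and 16311 of the first were detected (p under 0.05) on 3 or more arrays. A model of the 4 group means was fitted with lmFit and eBayes (11.29 residual degrees of freedom), and p-values were adjusted by Benjamini-Hochberg within each of 6 comparisons. SE and intervals are from that fit. For lists, the brightest detected probe stood for each of 10258 genes.

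Every tested probe of the members is named, with both detected Ezh2 probes, up to 4 genes in each direction from each list and comparison by size among those that passed, and the 5 probes most correlated with Ahcy and with the member probe of largest average effect. Mtr, the marker genes and the untested probes are named as listed, Amd2 as a list gene. The members and lists were chosen with earlier results of these data known. Alternatives were the normalisation and background correction, the authors' values, the filter on dim probes, 1 probe for each gene, the replicate number as a block, array weights, a fit of the compared groups alone and the loss of each array. No slide was given in the headers, so a slide block was not run. Scripts were tested on simulated data. Figures were drawn with matplotlib 3.10.9 in Python 3.11.15.

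Replicate numbers were not shown to pair the samples. Of 18 pairs of arrays with the same number, 2 had a correlation of their deviations from the group means over 0.1 (range -0.26 to 0.21). With 3 arrays in each group, this check cannot exclude a pairing.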

Additional observations from a re-analysis of the deposited data

How the results depend on the processing

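Across 21 alternative settings there were 1930 values of single member probes, of which 1799 stayed on the same side of the threshold, 121 no longer passed and 10 newly passed, and 0 calls changed sign. Of the 24 calls in the DZNep comparisons, 10 held in every setting. The calls of 9 probes for DZNep without high glucose became 4 when arrays were only centred on their medians, 5 with no filter on dim probes, 5 of 7 with 1 probe for each gene and 4 when only the 2 groups were fitted, and ranged from 3 to 8 when 1 array was left out. The 5 calls in high glucose became 2 with centring, 2 with no filter and 2 with the replicate block, and ranged from 2 to 5 with 1 array left out. The 10 calls of the average effect became 6 of 7 with 1 probe for each gene and ranged from 7 to 10 with 1 array left out. With 1 array left out, the counts over all probes ranged from 3553 to 5047 without high glucose and from 1943 to 3552 in high glucose. For the average effect they ranged from 5213 to 5984. The replicate block gave 7 calls without high glucose, 2 in high glucose and 10 for the average, and 0 in the other comparisons, where every setting gave 0 members. Over all probes, calls for high glucose alone were 20 and ranged from 3 (2 groups fitted) to 283 (quantile normalisation without background correction), 63 with a stricter filter and 96 with array weights. For high glucose with DZNep they were 12, and 0 with 2 groups fitted, 37 with array weights, 23 without background correction and 6 with the block. With 1 array left out these ran from 10 to 70 and from 5 to 17. For the interaction they were 6, against 145 without background correction, 57 with array weights, 18 with a stricter filter, 17 with centring and 0 with the block, with no filter or with the authors' values, and 0 whichever single array was left out. For DZNep without high glucose 5080 became 3334 with 2 groups fitted, and centring turned the split of 2783 higher and 2297 lower into 1331 and 2435. In high glucose 3100 became 1906 with centring and 5198 with array weights. Its split of 1643 higher and 1457 lower was 1950 and 1111 with the authors' values, and centring turned the average from 3271 and 2856 into 2202 and 2719. Among pathway lists, 271 of 372 counts stayed within 1.5 times the main one. The cause of these moves was not tested. With 3 arrays a group, and dim probes such as Mat2b 3 near background, small changes of a member could not be detected reliably.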
